A study of Mus musculus with 8 samples.

Results

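The unfolded protein and integrated stress response genes were taken as a list of 33 gene symbols: the stress sensors of the endoplasmic reticulum (ER), their transcription factors, ER chaperones and disulfide isomerases, genes of ER-associated degradation, and targets of ATF4. A row carried each of the 33 symbols in the gene tables, which hold 24848 symbols in all, and 32 of the 33 passed the filter on low counts (Derl3 did not). The RNA came from the tibialis anterior, a muscle of the lower leg, after ischemia. All animals were male and Leprdb/db, a genotype without a functional leptin receptor that makes mice obese and diabetic. The 4 placebo libraries came from mice on a control diet with no drug, and the 4 praliciguat libraries from mice on a diet with 75 ppm praliciguat, a drug that stimulates soluble guanylate cyclase, through which nitric oxide raises cGMP. Its drug content was chosen for a peak plasma level like that of 10 mg/kg/day given orally. In both groups a hind limb had been made ischemic by surgery, the diet started on day -3 and lasted 31 days, and muscle was taken on day 28. Muscle without ischemia, and muscle of mice with a working leptin receptor, was not analysed here, so no value below says whether the stress response was high or low in itself. No label states that every library is its own mouse. The p-values therefore describe the spread among these libraries alone.

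Proteins that enter the ER are folded by chaperones such as BiP (Hspa5) and joined by disulfide bonds with the help of disulfide isomerases. When unfolded proteins gather there, the sensors IRE1 (Ern1), PERK (Eif2ak3) and ATF6 are activated, and chaperone and degradation genes are induced through ATF6 and the spliced form of XBP1. PERK and related kinases phosphorylate the translation factor eIF2alpha, which slows protein synthesis and raises translation of ATF4. ATF4 in turn induces amino acid genes and CHOP (Ddit3), and muscle fibres are known to use this second arm under mitochondrial and nutrient stress. The sensors act by phosphorylation, cleavage and splicing, and ATF4 by translation, which total RNA counts per gene do not measure.

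The promoter sequences are shown to give the stress elements that these genes are known for. RefSeq (GRCm38.p6, the assembly of mm10) gave windows from 250 bases before to 50 bases after the start for 28 of the 33 genes, without Atf6, Hyou1, Manf, Derl1 and Ppp1r15b. The ER stress element was searched on both strands as CCAAT, 9 free bases and CCACG, in which the end letters are read by NF-Y and by ATF6 or XBP1. It stood in the windows of 9 of the 28 genes, and in those of 0.137% of the 27025 genes with a window. The 28 were picked as known stress genes, so this is a description of the list. The matched sequences, written on the strand of the motif with the fixed letters in capitals, were these.
Hspa5: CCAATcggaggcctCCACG
Hsp90b1, first match: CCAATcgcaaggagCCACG
Hsp90b1, second match: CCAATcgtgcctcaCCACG
Calr: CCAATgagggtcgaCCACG
Canx: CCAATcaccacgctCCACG
Creld2: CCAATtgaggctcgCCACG
Dnajc3: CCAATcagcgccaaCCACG
Pdia6: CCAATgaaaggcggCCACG
Syvn1: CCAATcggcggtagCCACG
Derl3: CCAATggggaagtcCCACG
The second form of this element, ATTGG and CCACG with 1 free base between, was found in Dnajb11 and Herpud1 and in 0.0444% of genes with a window. The composite C/EBP-ATF element, searched as TGATGNAA, stood in 4 of the 28 genes (Asns, Chac1, Trib3 and Herpud1) beside 4.51% of all genes with a window. The XBP1 element TGACGTGG was found in 0 of the 28, beside 0.714%. A match describes the letters and is not a measured binding site.

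The 250 bases before the start are given for 3 genes that the values below turn on: the main chaperone, the ATF4 target that varied most, and the gene whose groups did not overlap. Capitals mark the exact matches named above, and the last has none. Near matches, with a fixed letter changed, were not searched, so a variant of an element would not be marked.
Hspa5, chr2:34771840-34772089, plus strand: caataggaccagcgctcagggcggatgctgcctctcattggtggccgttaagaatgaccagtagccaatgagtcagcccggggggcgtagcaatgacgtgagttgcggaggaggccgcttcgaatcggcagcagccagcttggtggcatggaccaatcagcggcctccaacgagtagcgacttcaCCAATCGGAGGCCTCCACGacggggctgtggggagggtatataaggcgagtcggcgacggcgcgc
Chac1, chr2:119350992-119351241, plus strand: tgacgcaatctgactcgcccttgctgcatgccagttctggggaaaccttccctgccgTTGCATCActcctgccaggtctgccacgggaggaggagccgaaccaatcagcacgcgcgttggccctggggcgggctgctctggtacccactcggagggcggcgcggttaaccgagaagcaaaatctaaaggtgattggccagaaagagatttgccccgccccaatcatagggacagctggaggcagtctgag
Ddit3, chr10:127290543-127290792, plus strand: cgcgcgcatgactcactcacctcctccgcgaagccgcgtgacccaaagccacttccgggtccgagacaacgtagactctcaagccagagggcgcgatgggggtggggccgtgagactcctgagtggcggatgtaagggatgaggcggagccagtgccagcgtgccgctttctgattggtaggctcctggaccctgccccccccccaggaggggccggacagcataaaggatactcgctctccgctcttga
In Chac1 the capitals are the reverse complement of the searched letters, 193 bases before the start. In Hspa5 the match begins 65 bases before the start.

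Total expected counts, RSEM's estimated reads per gene summed over the table, ranged from 21099764 to 31896205 per library. The 10 markers of skeletal muscle fibres were present in every library, with a summed level of 183700 to 206127 TPM (scaled for gene length and library). Praliciguat replicate 3 had the highest summed level of 9 macrophage markers, 1306 TPM, against 104 to 260 TPM in the other praliciguat libraries and 145 to 421 TPM in placebo, and no marker was at 0 in all libraries. Its 7 fibroblast markers summed to 2895 TPM, against 427 to 989 and 841 to 1488 TPM. In placebo, replicate 3 was the highest for both lists. Replicate 3 of each group was also the highest for the adipocyte, regenerating fibre and satellite cell, plasma and B cell, neutrophil and T cell lists. The 8 slow fibre markers summed to 1330 to 3241 TPM in placebo and 447 to 707 TPM under praliciguat, without overlap, and 8 endothelial markers to 343 to 447 against 253 to 348 TPM. The part of these fibres and cells in the values below was not tested. In bulk muscle, fewer cells of a type and less RNA per cell cannot be told apart. By the number in its title, each library belongs to a lower run (replicates 1 and 2 of each group) or an upper run (replicates 3 and 4), and no label gives the meaning.

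The question of the design is whether the drug alters RNA levels in the ischemic muscle, here for the stress genes. None of the 32 tested genes passed the threshold: edgeR's quasi-likelihood test called 0 at an adjusted p under 0.05, beside 0% of the 13569 genes tested, and the smallest adjusted p among the 32 was 0.588 (Ddit3). At an unadjusted p under 0.05 there were 2 of the 32, Ddit3 lower and Xbp1 higher, beside 5.73% of all genes tested. DESeq2 and limma-voom also called 0 of the 32, with 2 and 1 at an unadjusted p under 0.05. Over all 13569 genes DESeq2 called 15 higher and 114 lower, and limma-voom 0 higher and 2 lower. At an unadjusted p under 0.05 there were 336 higher and 526 lower with DESeq2, and 254 and 567 with limma-voom. The groups did not overlap in 1 of the 32 genes, Ddit3, beside 3.86% of all genes tested. The median log2 fold change (praliciguat against placebo) of the 32 was 0.025, and that of all genes tested 0.020. On TMM-scaled counts 10 of the 32 lay below 0 (44.8% of all genes tested), whereas on TPM with a pseudocount of 1 it was 20 of the 32 (56.9% of all genes tested).

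The data bounded most of these differences. The 95% interval of the log2 fold change lay between -0.5 and 0.5 for 19 of the 32 genes, where 49.0% of all genes tested had an interval this narrow and near 0. It lay between -1 and 1 for 28 of the 32, beside 78.9% of all genes tested. The 4 genes for which a doubling or halving was not bounded were Sdf2l1, Asns, Chac1 and Sesn2, of which Chac1 had the widest interval (-0.99 to 2.06).

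**Figure D1:**
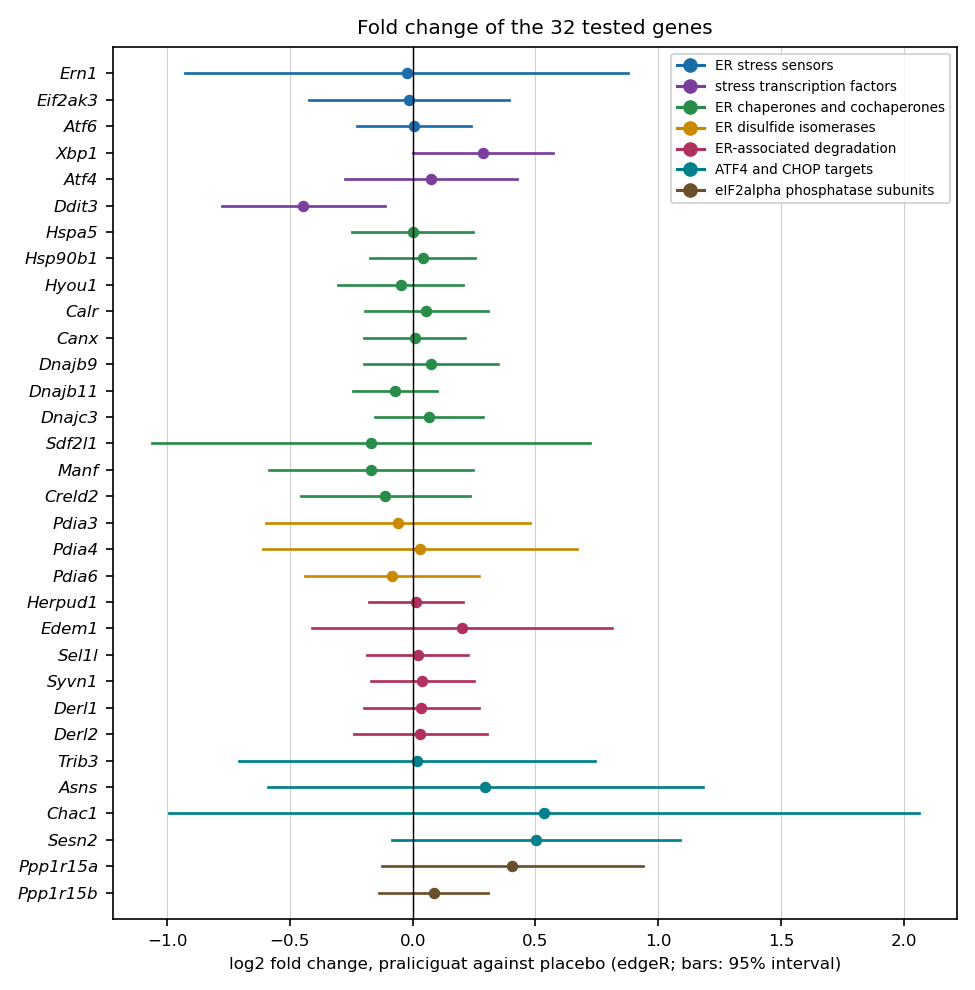
Log2 fold change of the 32 tested genes, praliciguat against placebo (x axis), with the edgeR estimate as a point and its 95% interval as a bar, coloured by role. The interval of Ddit3 (-0.78 to -0.11) lies below 0, that of Hspa5 (-0.25 to 0.25) is centred on it, and that of Chac1 is the widest.

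The 3 sensors did not separate the groups. Ern1, which codes for the kinase and RNase IRE1, was at 1.69, 4.32, 5.35 and 7.22 CPM (counts scaled to library size with TMM) in placebo replicates 1 to 4 and at 6.55, 4.82, 3.67 and 3.30 CPM under praliciguat. Placebo held both the lowest and the highest library, and the group means were 4.65 ± 2.31 and 4.59 ± 1.46 CPM (SD, n = 4 each). The difference of mean log2 CPM was 1.03 between the lower-run libraries and -0.82 between the upper-run ones. Eif2ak3, the kinase PERK, was at 7.62, 8.15, 9.16 and 7.58 CPM against 5.53, 7.77, 9.88 and 8.98 CPM. Its praliciguat libraries spanned the placebo values (log2 fold change -0.014 ± 0.18 SE). Atf6, the sensor that is cleaved into a transcription factor, was at 30.7, 38.4, 40.9 and 41.6 CPM against 38.9, 37.9, 38.2 and 37.4 CPM. The 4 praliciguat libraries lay close together inside the placebo range (0.0071 ± 0.10 SE), and edgeR gave the 3 sensors an adjusted p of 0.998 each.

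Of the 3 transcription factors, 2 had an unadjusted p under 0.05, in opposite directions. Xbp1, whose mRNA is spliced by IRE1 to code for the active factor, was at 61.9, 71.2, 76.1 and 74.7 CPM in placebo and at 75.7, 74.2, 100.4 and 96.3 CPM under praliciguat. Replicates 3 and 4 of praliciguat lay above every placebo library, and replicates 1 and 2 inside the placebo range. The log2 fold change was 0.29 ± 0.13 SE (95% interval 0.0023 to 0.57, edgeR unadjusted p = 0.0485, adjusted p = 0.862). It was 0.21 without praliciguat replicate 3, and 0.078 without praliciguat replicates 3 and 4, an alternative chosen after seeing the data. Praliciguat replicate 3 was high in macrophage, fibroblast and adipocyte markers. Its 11 plasma and B cell markers, of which 4 passed the filter on low counts, summed to 42.5 TPM. This sum was 8.73 to 13.4 TPM in the other praliciguat libraries (9.67 TPM in replicate 4) and 6.71 to 11.8 TPM in placebo. The part of these markers in the level of Xbp1 was not tested.

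A rough view of Xbp1 splicing is the deposited gene length, which RSEM gives as the mean of the gene's transcripts weighted by their estimated abundance. The tables list 2 Xbp1 transcripts, the unspliced and the shorter spliced form. The length was 2247.00, 2245.17, 2244.04 and 2242.95 bases in placebo replicates 1 to 4 and 2247.00, 2243.97, 2242.12 and 2243.21 bases under praliciguat. In replicate 1 of both groups the length was the longest of the 8, and in the others 1.83 to 4.88 bases shorter. The mean shortening was 2.21 ± 1.73 bases in placebo and 2.93 ± 2.09 bases under praliciguat (SD, n = 4), a difference of 0.715 bases (exact two-sided permutation p = 0.629 over 70 groupings, the smallest possible being 0.0286). These lengths rest on the reads that tell the forms apart, out of 1390 to 3444 Xbp1 reads per library.

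Atf4 was at 204, 212, 154 and 207 CPM in placebo and 221, 249.5, 163 and 186 CPM under praliciguat. Replicate 3 was the lowest library of both groups, and the groups overlapped over most of their range (log2 fold change 0.075 ± 0.16 SE, edgeR adjusted p = 0.989). Ddit3, the factor CHOP, which is induced by ATF4 and linked to cell death under lasting stress, was at 17.6, 14.5, 13.0 and 13.6 CPM in placebo and at 9.96, 12.2, 12.2 and 8.73 CPM under praliciguat. Every praliciguat library lay below every placebo library, by a gap that was smaller than the spread within either group. Its log2 fold change was -0.44 ± 0.15 SE (edgeR unadjusted p = 0.0143, adjusted p = 0.588), with -0.53 within the lower run and -0.37 within the upper run. It ranged from -0.51 to -0.34 when 1 library was left out.

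In GENCODE M21, exons of Ddit3 (RefSeq position chr10:127290793-127296291) overlap exons of Mars, a tRNA synthetase gene, on the other strand, and, although the library kit keeps strand per the labels, no source used here gives the strand setting of the counting. Exons of Gm4189 also overlap those of Ddit3 on the other strand. Mars was at 67.3 ± 11.1 CPM in placebo and 74.7 ± 15.2 CPM under praliciguat (SD, n = 4). The part of overlapping genes in the Ddit3 counts was not tested. Reads of Ddit3 and Mars may not have been told apart if strand was ignored. The expected counts of Ddit3 were whole numbers in all 8 libraries, and what this says of shared reads was not tested.

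**Figure D2:**
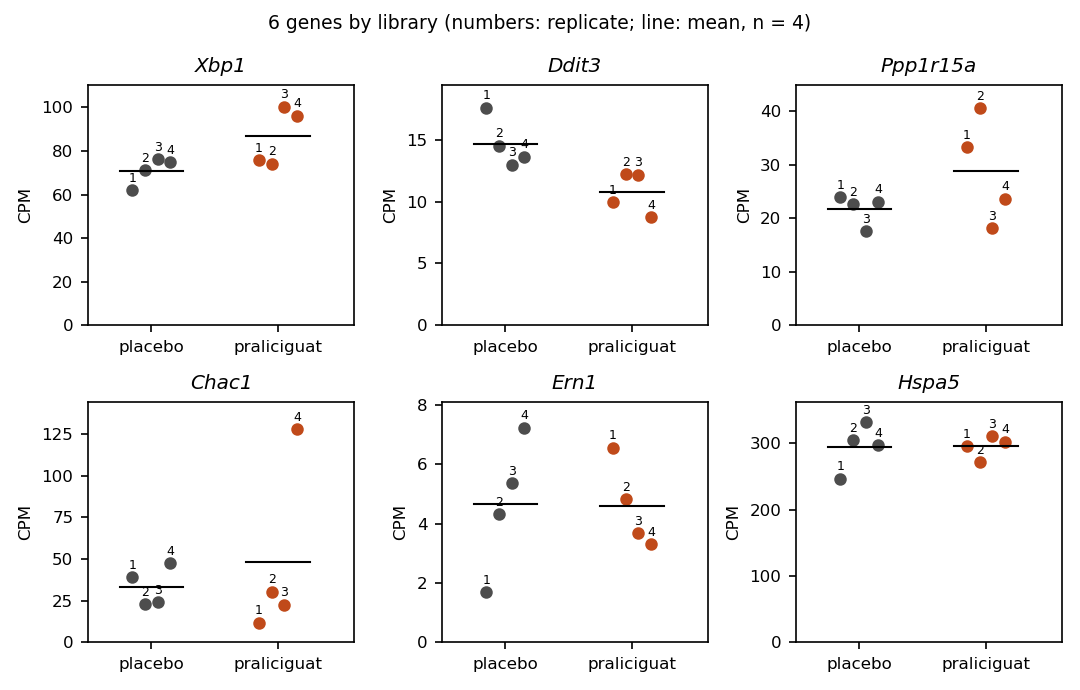
CPM of 6 genes in each library (y axes start at 0), placebo in grey and praliciguat in orange, with the replicate number beside each point and the group mean as a line. Ddit3 is the 1 gene of the 6 whose groups do not overlap, and praliciguat replicate 4 stands at 128 CPM for Chac1.

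The 11 ER chaperones and cochaperones were spread evenly about 0, with 6 above and 5 below on TMM-scaled counts (Hspa5 and Canx moved below on TPM) and log2 fold changes from -0.17 to 0.074. Hspa5, the ER chaperone BiP that binds unfolded chains and holds the sensors inactive, was at 247, 305, 331 and 297 CPM in placebo and 295, 272, 311 and 302 CPM under praliciguat. The praliciguat libraries lay inside the placebo range, with means of 295 ± 35.4 and 295 ± 16.9 CPM (SD, n = 4). Its log2 fold change was 0.00060 ± 0.11 SE with a 95% interval of -0.25 to 0.25. Hsp90b1, the ER form of HSP90 (GRP94), stood at 198 ± 17.8 against 204 ± 10.9 CPM. The lectin chaperones that hold glycoproteins, Calr and Canx, stood at 261 ± 18.2 against 272 ± 33.9 CPM and at 128 ± 12.2 against 128 ± 4.16 CPM.

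The cochaperones that drive BiP were as close. Dnajb9 (ERdj4), which also represses IRE1, was at 48.5 ± 5.12 against 51.0 ± 7.21 CPM, Dnajb11 (ERdj3) at 57.1 ± 2.84 against 54.3 ± 1.78 CPM and Dnajc3 (p58IPK), which also inhibits PERK, at 45.7 ± 4.66 against 47.9 ± 3.07 CPM (SD, n = 4). Hyou1, the nucleotide exchange factor GRP170, had a log2 fold change of -0.048 ± 0.11 SE. The small secretory-pathway proteins lay lowest of the 11: Sdf2l1, a partner of ERdj3, at -0.17 ± 0.40, Manf, a secreted factor released under ER stress, at -0.17 ± 0.18 and Creld2, an ER protein with disulfide activity, at -0.11 ± 0.15 (SE). Exons of Manf, Hsp90b1 and Dnajb9, and of Eif2ak3, Pdia3, Pdia6, Syvn1 and Derl2, overlap annotated exons on the other strand. On the same strand, exons of Manf overlap those of Rbm15b, exons of Hsp90b1 those of Gm15344 and Gm25745, and exons of Pdia4 those of Mir704.

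The 3 disulfide isomerases varied more between libraries than between groups. Pdia3 (ERp57), the isomerase that works with calreticulin and calnexin, was at 82.4 ± 14.9 CPM in placebo and 79.0 ± 28.2 CPM under praliciguat. Pdia4 (ERp72) was at 21.6, 21.5, 32.7 and 20.4 CPM in placebo and at 17.9, 16.6, 38.7 and 25.02 CPM under praliciguat, and Pdia6 (P5) at 49.0, 51.6, 62.1 and 49.99 against 40.6, 41.7, 64.0 and 54.2 CPM. In each of these genes replicate 3 was the highest library of both groups, and praliciguat replicates 1 and 2 were the lowest of the 8.

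This order was shared by a larger set, although the replicate number is only a name here and pairs no libraries. Replicate 3 was singled out after seeing the data, so the count below only describes these libraries. Replicate 3 was the highest library of its group in both groups for 15 of the 32 genes, beside 17% of the 13569 genes tested: Eif2ak3, Xbp1, Hspa5, Hsp90b1, Hyou1, Calr, Sdf2l1, Manf, Creld2, Pdia3, Pdia4, Pdia6, Edem1, Asns and Sesn2. The size differed among them. The level of replicate 3 divided by the mean of the other 3 libraries of its group was 2.03 in placebo and 2.06 under praliciguat for Sdf2l1, 1.78 and 2.26 for Asns, 1.54 and 1.95 for Pdia4, and 1.52 and 1.93 for Edem1. For Hspa5 it was 1.17 and 1.07. Other genes ran the other way, with ratios of 0.74 and 0.75 for Atf4, 0.76 and 0.56 for Ppp1r15a and 0.66 and 0.40 for Chac1. Replicate 3 was also the library of each group with the highest macrophage, fibroblast, adipocyte, regenerating fibre, plasma and B cell, neutrophil and T cell marker sums. It had the lowest skeletal muscle fibre sum of each group. The part of those fibres and cells in the order was not tested.

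Leaving out praliciguat replicates 3 and 4 keeps the libraries that were the lowest of the 8 for the isomerases, so the lower values of these genes there follow from the choice and support nothing. In that fit, chosen after seeing the data, 6 of the 32 genes were lower at an unadjusted p under 0.05 (9.1% of all genes), namely Ddit3, Sdf2l1, Manf, Pdia3, Pdia4 and Pdia6, and 1 was higher (5.42% of all genes), Ppp1r15a. The groups did not overlap in 8 lower and 2 higher genes, beside 14.3% and 11.6% of all genes. edgeR called 0 of the 32, beside 0.615% of all genes (smallest adjusted p = 0.055, Ppp1r15a). Because only lower-run praliciguat libraries remained in it beside all 4 placebo libraries, run and treatment cannot be fully told apart there. Without replicate 3 of both groups, likewise chosen after seeing the data, Ddit3 was lower at an unadjusted p under 0.05 (5.31% of all genes) and Ppp1r15a higher (2.6%). The groups then did not overlap in 1 lower gene (7.54% of all genes) and 0 higher genes (5.59%), and edgeR called 0 of the 32, beside 0.0667% of all genes.

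**Figure D3:**
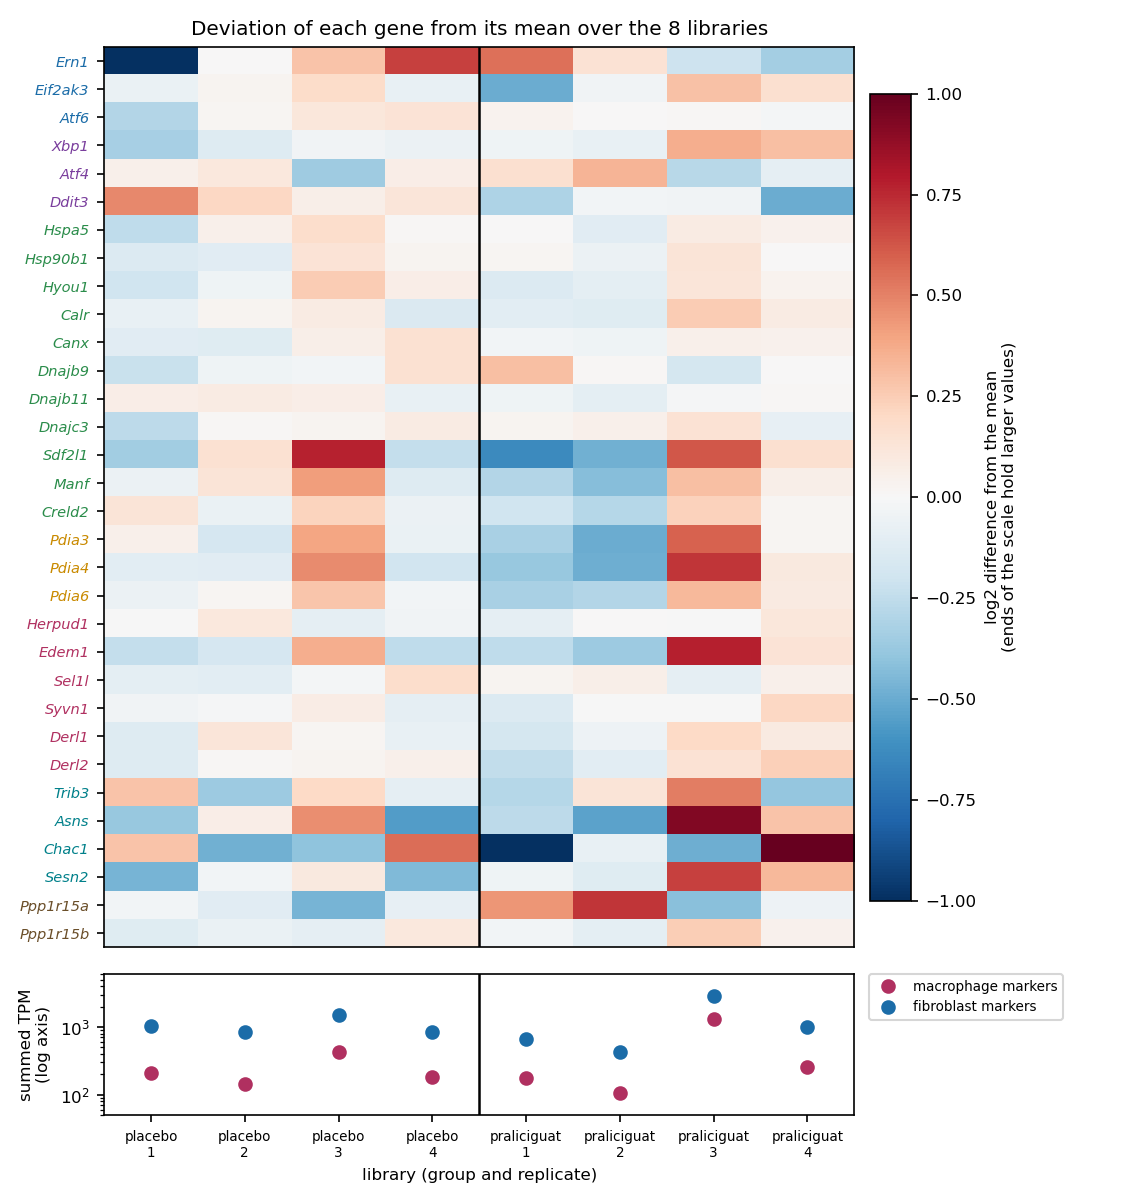
Top: log2 difference of each of the 32 genes (rows, coloured by role as in the fold change plot) from its mean over the 8 libraries (columns). Bottom: summed TPM of 9 macrophage and 7 fibroblast markers in the same libraries, on a log axis. Replicate 3 of both groups is red for the isomerases, Sdf2l1, Edem1 and Asns, and is the highest of its group for both marker lists.

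The genes of ER-associated degradation, which carries misfolded proteins out to the proteasome, lay close to equal in both groups. All 6 tested members had a log2 fold change above 0, from 0.012 to 0.20, on TMM-scaled counts, and 5 of them (Herpud1, Sel1l, Syvn1, Derl1 and Derl2) fell below 0 on TPM. Herpud1, a membrane protein that assembles the degradation complex, was at 128 ± 7.37 against 129 ± 7.40 CPM. Syvn1, the ubiquitin ligase HRD1, had a log2 fold change of 0.040 ± 0.092 SE, and its partner Sel1l was at 83.9 ± 7.79 against 85.1 ± 3.96 CPM. The derlins of the membrane channel, Derl1 and Derl2, had log2 fold changes of 0.036 ± 0.10 and 0.032 ± 0.12 (SE). Edem1, the lectin that picks glycoproteins for degradation, had the largest of the 6 (0.20 ± 0.27 SE), which became -0.097 without praliciguat replicate 3. Derl3, a derlin typical of secretory cells, had 0, 4, 6 and 0 reads in placebo and 3, 0, 10 and 6 reads under praliciguat, too few to compare.

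The 4 targets of ATF4 and CHOP had log2 fold changes from 0.018 to 0.53, with no gene at an unadjusted p under 0.05. Chac1, an enzyme that degrades glutathione, was at 39.0, 22.8, 24.1 and 47.4 CPM in placebo and at 11.9, 30.4, 22.6 and 128 CPM under praliciguat. Praliciguat held both the lowest and the highest library, and its mean of 48.2 ± 53.7 CPM (SD, n = 4) rested on replicate 4. The log2 fold change was 0.53 ± 0.67 SE with all libraries and -0.62 without praliciguat replicate 4. Sesn2, a sestrin that restrains mTORC1, was at 2.27, 3.25, 3.60 and 2.32 CPM in placebo and 3.22, 3.03, 5.66 and 4.29 CPM under praliciguat (0.50 ± 0.26 SE, edgeR unadjusted p = 0.0857). The upper 2 praliciguat libraries, replicates 3 and 4, lay above placebo and the other two inside its range. Asns, asparagine synthetase, was at 3.32 ± 1.24 against 4.07 ± 2.14 CPM, and Trib3, a pseudokinase induced by CHOP, at 1.78 ± 0.451 against 1.79 ± 0.675 CPM.

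The 2 subunits that direct phosphatase 1 to eIF2alpha, and so end the block of translation, had means above placebo. Ppp1r15a (GADD34), the inducible subunit, was at 24.0, 22.6, 17.6 and 23.1 CPM in placebo and at 33.3, 40.5, 18.2 and 23.6 CPM under praliciguat. Replicates 1 and 2 of praliciguat lay above every placebo library, and replicates 3 and 4 did not stand apart from placebo. The log2 fold change was 0.41 ± 0.23 SE (edgeR unadjusted p = 0.118, adjusted p = 0.969). It ranged from 0.20 to 0.58 when 1 library was left out. The difference was 0.66 within the lower run and 0.041 within the upper run. Ppp1r15b, the constitutive subunit, was at 34.7 ± 2.54 against 36.8 ± 3.89 CPM. Exons of both genes overlap annotated exons on the other strand.

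The rest of the pathway was read from 9 further lists with 172 genes, of which 171 had a row and 167 were tested. edgeR called 0 of the 167 (smallest adjusted p = 0.294), and 3 were higher and 2 lower at an unadjusted p under 0.05, beside 1.95% and 3.78% of all genes tested. The groups did not overlap in 4 higher genes (Slc3a2, Ppp1cc, Erlec1 and Creb3) and 3 lower genes (Slc7a1, Atf5 and Dnajc1) of the 167. Over all genes tested the share without overlap was 3.86%, both directions together. The median log2 fold change of the 167 was 0.049, with 109 above 0 and 58 below. Over all genes tested the median was 0.020, with 44.8% below 0. These signs rest on TMM-scaled counts. On TPM with a pseudocount of 1, 56.9% of all genes tested lay below 0, and the 9 lists were not read on TPM. The gene of lowest p was Slc7a1, the transporter of cationic amino acids that ATF4 induces, at 8.82, 9.80, 9.61 and 11.8 CPM in placebo and 7.69, 5.17, 5.95 and 5.71 CPM under praliciguat. The groups did not overlap (log2 fold change -0.71 ± 0.16 SE), and the differences within the runs were -0.55 and -0.86. In the same list of 18 tested ATF4 amino acid genes, 11 above 0 and 7 below, Slc3a2, the heavy chain of amino acid exchangers, was at 43.7 ± 1.56 against 51.0 ± 4.54 CPM.

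Among 15 genes of the eIF2alpha kinases, eIF2 and eIF2B, 12 lay above 0. Ppp1cc, a catalytic subunit of phosphatase 1, was at 31.8 ± 3.504 against 39.0 ± 1.295 CPM without overlap (0.29 ± 0.093 SE, edgeR adjusted p = 0.543), and Impact, an inhibitor of the kinase GCN2, had -0.59 ± 0.30. Of 14 other transcription factors 11 lay below 0. Atf5, a factor of the mitochondrial stress response, was at 84.9, 89.5, 91.9 and 91.9 CPM in placebo and at 46.8, 77.7, 80.0 and 72.8 CPM under praliciguat. The groups did not overlap (-0.37 ± 0.16 SE, edgeR adjusted p = 0.831), and Nfe2l1 followed with -0.34 ± 0.16. Of 28 other degradation genes 21 lay above 0. Erlec1, an ER lectin, was at 39.4 ± 3.15 against 46.9 ± 3.08 CPM without overlap. Ube2j1, a ubiquitin-conjugating enzyme, had a log2 fold change of 0.19 ± 0.10 SE.

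No gene of the other 5 lists had an unadjusted p under 0.05. Of 25 other ER folding enzymes 16 lay above 0, with Dnajc1 at -0.15 ± 0.076 and Uggt1, the folding sensor of glycoproteins, at -0.17 ± 0.098 (SE). Of 32 genes of ER translocation and secretory transport 23 lay above 0, with Sec11c at 0.19 and Gosr2 at 0.14. Of 13 tRNA synthetase and tRNA export genes 9 lay above 0, with Mars at 0.15 and Wars at 0.094. Of 12 mitochondrial stress genes 9 lay above 0, with Trap1, the mitochondrial HSP90, at 0.23 ± 0.11 and Clpp, a mitochondrial protease, at -0.12 ± 0.093. Of 10 tested secreted factors and growth brakes 5 lay on each side, with Stc2 at 0.42 ± 0.23 and Txnip at 0.27 ± 0.17. Fgf21 and Gdf15, the secreted factors best known from muscle stress, did not pass the filter on low counts.

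Per length, the means of the 32 tested genes in placebo ran from 267 TPM (Calr) to 1.72 TPM (Trib3). Derl3, which did not pass the filter, lay below them at 0.175 TPM. The most abundant were Calr (267 ± 22.1 TPM), Atf4 (261 ± 30.4 TPM) and Hspa5 (225 ± 31.3 TPM), whose ranges overlapped over the 4 placebo libraries. Hsp90b1 (139 ± 17.6 TPM) and Herpud1 (129.8 ± 2.18 TPM) followed, below these 3 and within the spread of each other. Xbp1 (62.0 ± 7.09 TPM) and Pdia3 (60.5 ± 13.0 TPM) came next, within the spread of each other, and the remaining chaperones reached down to Sdf2l1 at 6.44 ± 2.98 TPM. The 3 sensors were low, Atf6 at 9.38 ± 1.42, Eif2ak3 at 3.70 ± 0.539 and Ern1 at 2.22 ± 1.14 TPM (SD, n = 4). The ATF4 targets did not share a level: Chac1 was at 43.3 ± 15.9 TPM, while Asns (3.43 ± 1.36), Sesn2 (2.08 ± 0.507) and Trib3 (1.72 ± 0.472 TPM) were near the bottom, where Sesn2 overlapped both of the others and Asns lay above Trib3 in every placebo library. Derl3 was last, at 0 TPM in placebo replicates 1 and 4.

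**Figure D4:**
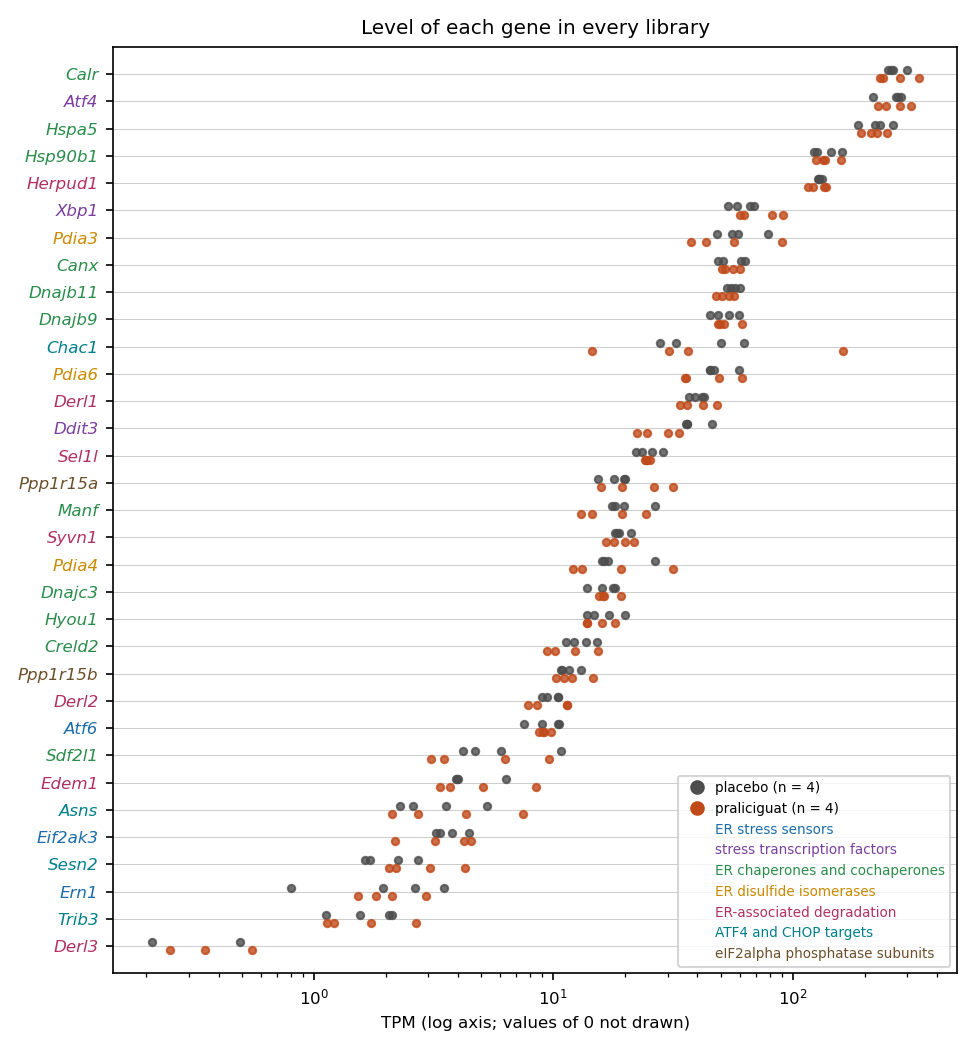
TPM of the 33 genes in each library on a log axis, ordered by the mean over the 8 libraries, placebo in grey and praliciguat in orange, with gene names coloured by role. Calr, Atf4 and Hspa5 lie at the top, the sensors Eif2ak3 and Ern1 among the lowest, and praliciguat replicate 4 of Chac1 stands away from the other libraries.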

How the data were processed

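RNA of 8 muscle libraries (4 placebo, 4 praliciguat) was sequenced from a stranded mRNA kit, per the labels' protocols. Per the submitters' processing notes, STAR 2.5.3a, RSEM 1.2.28, Trimmomatic and FastQC were used, with the build mm10. The authors deposited RSEM expected counts, TPM and FPKM per gene, with lengths, of which FPKM was not used. After rounding, the expected counts were tested with edgeR 4.0.16 (filterByExpr, TMM, robust quasi-likelihood test) in R 4.3.3, with Benjamini-Hochberg adjustment over 13569 genes and a threshold of 0.05. TPM served for levels per length and for marker sums. DESeq2 1.42.0, limma 3.58.1, other scalings and filters, pseudocounts of 1 and 0.1 on TPM, a term for the run of title numbers and leaving out each library were the alternatives. A count of 3 corresponded to 0.0941 to 0.142 CPM. Standard errors are the log2 fold change over the square root of F. Scripts were tested on simulated data. The genes and lists were chosen with earlier results of these data known. All 33 genes were named, with values per library for those at an unadjusted p under 0.05, those without overlap and 7 fixed genes (others with values per library were chosen after their values were seen), and from each other list the 2 of lowest p.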

Additional observations from a re-analysis of the deposited data

Results flagged for a closer look

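Single libraries stood far from the other 3 of their group (Dixon's test) in 5 of 64 sets of 4 libraries, where chance gives about 1 in 20. Atf4 was lowest in placebo replicate 3 (154 CPM), and Dnajb11 in placebo replicate 4 (52.8 CPM). Placebo replicate 3 was highest for Pdia4 (32.7 CPM) and Edem1 (19.2 CPM). Praliciguat replicate 4 was highest for Chac1 (128 CPM). Placebo replicate 3 also had the highest macrophage, fibroblast and adipocyte marker sums of its group, among other lists. The part of those cells in these values was not tested.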

How the results depend on the processing

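Each alternative run called 0 of the 32 tested genes, and the smallest adjusted p of any of them was 0.356 over the alternatives other than the 2 chosen after seeing the data. The log2 fold changes of 10 of the 32 kept their sign in all of these alternatives, Ddit3, Xbp1 and Ppp1r15a among them, and 22 turned in some, mostly with values near 0. Over all genes tested, edgeR called 0, DESeq2 129, limma-voom 2 with or without quality weights, and the fit with the run as a term 3. At an adjusted p under 0.1 edgeR without that term called 11. Leaving out 1 library gave 0 to 5 called genes (5 without placebo replicate 3) and 1 to 2 of the 32 without overlap. Over all genes tested, non-overlap was rarest without placebo replicate 1, with 278 higher and 455 lower of 13703 genes. It was most frequent without praliciguat replicate 3, with 508 higher and 796 lower of 13651 genes. Without praliciguat replicates 3 and 4 there were 85 called genes and 10 of the 32 without overlap, and without replicate 3 of both groups 9 called genes. Both of these alternatives were chosen after seeing the data, and the cause was not tested. With limma-voom the sign turned for Ern1 (0.031), Pdia4 (-0.017). With limma-voom and quality weights the sign turned for Ern1 (0.092), Hspa5 (-0.016), Calr (-0.0018), Pdia4 (-0.12), Herpud1 (-0.0100), Derl1 (-0.027), Derl2 (-0.0079). With limma-trend on log2(TPM + 1) the sign turned for Ern1 (0.0037), Atf6 (-0.021), Hspa5 (-0.033), Canx (-0.027), Pdia4 (-0.062), Herpud1 (-0.027), Sel1l (-0.018), Syvn1 (-0.0079), Derl1 (-0.0071), Derl2 (-0.018), Trib3 (-0.031), Chac1 (-0.018). With a pseudocount of 0.1 the sign turned for Ern1 (0.055), Atf6 (-0.022), Hspa5 (-0.033), Canx (-0.027), Pdia4 (-0.069), Herpud1 (-0.027), Sel1l (-0.019), Syvn1 (-0.0085), Derl1 (-0.0075), Derl2 (-0.021), Trib3 (-0.058), Chac1 (-0.028). With the run of title numbers as a term the sign turned for Ern1 (0.018), Pdia4 (-0.027). With upper quartile scaling the sign turned for Hspa5 (-0.0036). With a filter of 1 CPM in 4 libraries the sign turned for Hspa5 (-0.0010). Without praliciguat replicates 3 and 4 together the sign turned for Ern1 (0.29), Hspa5 (-0.057), Hsp90b1 (-0.00054), Calr (-0.092), Canx (-0.033), Pdia4 (-0.48), Herpud1 (-0.037), Edem1 (-0.27), Syvn1 (-0.052), Derl1 (-0.10), Derl2 (-0.17), Trib3 (-0.11), Asns (-0.41), Chac1 (-0.65), Ppp1r15b (-0.024). Without placebo replicate 3 and praliciguat replicate 3 together the sign turned for Ern1 (0.13), Pdia4 (-0.10), Herpud1 (-0.016), Derl1 (-0.022), Derl2 (-0.0068), Trib3 (-0.17), Ppp1r15b (-0.010). When each library was left out in turn the sign turned for Ern1 (-0.29 to 0.27), Eif2ak3 (-0.13 to 0.13), Atf6 (-0.075 to 0.055), Atf4 (-0.034 to 0.17), Hspa5 (-0.070 to 0.057), Hyou1 (-0.11 to 0.032), Calr (-0.022 to 0.11), Canx (-0.031 to 0.063), Dnajb9 (-0.022 to 0.14), Sdf2l1 (-0.51 to 0.15), Pdia3 (-0.32 to 0.076), Pdia4 (-0.28 to 0.21), Pdia6 (-0.22 to 0.0039), Herpud1 (-0.024 to 0.051), Edem1 (-0.10 to 0.37), Sel1l (-0.0096 to 0.087), Syvn1 (-0.028 to 0.090), Derl1 (-0.025 to 0.10), Derl2 (-0.050 to 0.11), Trib3 (-0.25 to 0.17), Asns (-0.10 to 0.55), Chac1 (-0.62 to 0.86). No paired analysis was possible because the labels give no replicate numbers: those used here only name the libraries within a group. The run of title numbers was fitted as a term, which pairs no single libraries. Depth limits Derl3, Trib3, Sesn2, Asns and Sdf2l1 most, with 10 reads or fewer per library for Derl3.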
